A study of Homo sapiens with 8 samples.

Results

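Cytosolic ribosomal protein genes were followed in H1 cells with and without SETD7. The genes were chosen by symbol: an RPL or RPS name with a number and an optional A, X or L ending, the acidic stalk genes RPLP0, RPLP1 and RPLP2, and RPSA. The pattern took 83 genes of the 11644 in the day 2 table, and all 83 were also among the 14070 genes of the day 0 table. Of these, 51 encode large subunit proteins and 32 encode small subunit proteins, paralogs included. The pattern leaves out FAU, whose ribosomal protein is made as a fusion with a ubiquitin-like protein, mitochondrial ribosomal proteins and pseudogenes.

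H1 is an established human embryonic stem cell line, and SETD7 encodes a lysine methyltransferase of histone and non-histone proteins. The groups were SETD7 knockout (KO) and wild-type (WT) H1 cells on day 2 of a hematopoietic differentiation protocol, with 3 RNA-seq libraries each, and KO and WT H1 cells on day 0, with 1 library each. The labels give the differentiation treatment for every library, day 0 included. All libraries were made from total RNA with an mRNA kit, and the labels do not give how the knockout was made, whether it is 1 clone, or whether the replicates were separate cultures. The p-values therefore measure only the spread between these libraries, which may be technical.

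Each cytosolic ribosome joins a small subunit, which holds the mRNA and reads its codons, to a large subunit, which forms the peptide bond. Most of these proteins are held in a single copy per ribosome, the stalk proteins RPLP1 and RPLP2 in more, and their mRNAs are among the most abundant in dividing cells. In vertebrates these mRNAs begin with a C followed by a run of pyrimidines, the 5' terminal oligopyrimidine (TOP) motif, through which mTOR and the RNA-binding protein LARP1 control their translation and stability. Embryonic stem cells make ribosomal components at a high rate, and in humans inherited mutation of certain members, such as RPS19, RPL5 or RPL11, causes Diamond-Blackfan anaemia, a failure of red cell formation.

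The start sites of 8 genes are shown because they carry, or lack, the pyrimidine run that is the shared sequence feature of the family. Each line gives 15 bases before the start annotated by RefSeq (GRCh38.p14) and the first 15 bases of the transcript, written 5' to 3' on the gene's own strand, with matches to CTTTCC or CTTCCT in capitals. RPS16, RPS21 and RPS27 are members with a match, RPL22L1 and RPL36AL are paralogs with a match, and RPL22, RPS27L and RPL7L1 have none in this window.
RPS16 (chr19:39435935-39435964, minus strand): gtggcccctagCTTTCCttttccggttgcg
RPS21 (chr20:62387088-62387117, plus strand): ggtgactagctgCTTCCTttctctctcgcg
RPS27 (chr1:153990747-153990776, plus strand): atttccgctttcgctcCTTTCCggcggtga
RPL22 (chr1:6199581-6199610, minus strand): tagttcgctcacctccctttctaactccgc
RPL22L1 (chr3:170870181-170870210, minus strand): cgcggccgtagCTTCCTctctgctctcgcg
RPL36AL (chr14:49620612-49620641, minus strand): ctgtttcttccCTTTCCtgttaggcgagag
RPS27L (chr15:63157463-63157492, minus strand): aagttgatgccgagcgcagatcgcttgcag
RPL7L1 (chr6:42879601-42879630, plus strand): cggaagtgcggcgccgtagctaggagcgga

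A RefSeq start was available for 67 of the 83 genes. On the gene's strand, 32 of the 67 genes (47.8%) held at least 1 of the motifs in a window. The share over 27305 genes with windows of the same length was 4.87%. A gene with several annotated starts, as 11 members have, was counted if any of its windows matched. CTTTCC was found for 20 members (29.9%, against 1.98% of all genes) and CTTCCT for 18 (26.9%, against 2.996%). On both strands together 33 members (49.3%) held a match, against 8.62% of all genes. The motifs were chosen after the windows had been read and can share bases where they overlap. RPL22 shows that a missing match says little about the run itself, since its window reads as a long pyrimidine stretch with other letters.

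The day 2 libraries held 29647943 to 39553614 counts in KO and 27880068 to 32230627 counts in WT, and the day 0 depth is unknown. SETD7 itself stood at 32.9, 28.9 and 33.7 CPM (counts scaled to library size with TMM factors) in the KO libraries and 54.8, 56.2 and 55.6 CPM in the WT libraries (log2 fold change -0.80 ± 0.058 SE, edgeR adjusted p = 9.51e-13), so its mRNA was lower but present. On day 0 it was 1.48 FPKM in KO and 3.53 FPKM in WT. The 5 pluripotency markers summed to 1107 FPKM in KO and 1110.2 FPKM in WT on day 0, when 6 primitive streak and mesoderm markers summed to 2.40 FPKM in KO and 1.39 FPKM in WT. On day 2 those mesoderm markers held 5729.8 to 5798 CPM in KO and 5499 to 5516 CPM in WT (2 of 6 tested genes called higher, 2 lower). The 1 blood marker of 5 in the day 2 table held 25.3 to 25.7 CPM in KO and 25.6 to 30.2 CPM in WT. Other marker lists also differed between the genotypes on day 2: 4 fibroblast markers held 445 to 468 CPM in KO and 315 to 334 CPM in WT (3 of 4 tested genes higher, 1 lower), 4 amnion or trophoblast markers 43.7 to 45.2 CPM in KO and 55.1 to 56.2 CPM in WT (3 of 4 lower), and 3 endoderm markers 8426 to 8602 CPM in KO and 7592 to 7676 CPM in WT (1 higher, 1 lower). The neural markers (2 in the table) held 829.6 to 891 CPM in KO and 772 to 797 CPM in WT (both called higher), and the 5 pluripotency markers 1989.8 to 2037 CPM in KO and 1927 to 1962 CPM in WT (1 higher, 1 lower). Their part in the results on ribosomal protein genes was not tested. In bulk samples, fewer cells of a type cannot be told apart from less RNA per cell.

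On day 2, ribosomal protein mRNAs were lower in KO cells by a small amount across both subunits. By edgeR's quasi-likelihood test with Benjamini-Hochberg adjustment over all 11475 tested genes, 40 of the 81 tested members (49.4%) fell and 0 rose at an adjusted p under 0.05. Over all tested genes, 11.0% fell and 12.3% rose. At an unadjusted p under 0.05, 52 members were lower and 0 higher, and limma-voom called 56 lower and DESeq2 39 lower, each with 0 higher. The shares over all genes by these other criteria are not given here, so these counts have no background beside them. The fold changes were below 0 for 76 of the 81 members, with a median log2 fold change of -0.13, against -0.0026 for all tested genes. Among the 74 members with at least 25 CPM, 72 were below 0, 40 fell (54.1%) and the median was -0.14. The members that fell ranged from 17.5% lower (RPS29) to 5.20% lower (RPS2), with a median of 9.29%. All 3 KO libraries lay below all 3 WT libraries for 49 of 81 members (60.5%), against 18.8% of all tested genes, and the reverse held for 0 members, against 18.9%.

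The fall was of like size in both subunits. Of 51 large subunit genes 26 fell (51.0%), with a median log2 fold change of -0.12, and of 30 tested small subunit genes 14 fell (46.7%), with a median of -0.14. Together the 83 genes took 5.88%, 6.503% and 6.31% of the counts in the KO libraries and 6.84%, 6.57% and 6.68% in the WT libraries. Each KO share was below each WT share, with means of 6.23 ± 0.318% and 6.70 ± 0.133% (SD, n = 3 each), a difference of -0.46 percentage points. The exact 2-sided permutation p was 0.1, the smallest that 3 against 3 libraries allow. Large subunit genes averaged 3.96% of counts in KO and 4.25% in WT, and small subunit genes 2.27% in KO and 2.45% in WT, both with the same p.

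**Figure D1:**
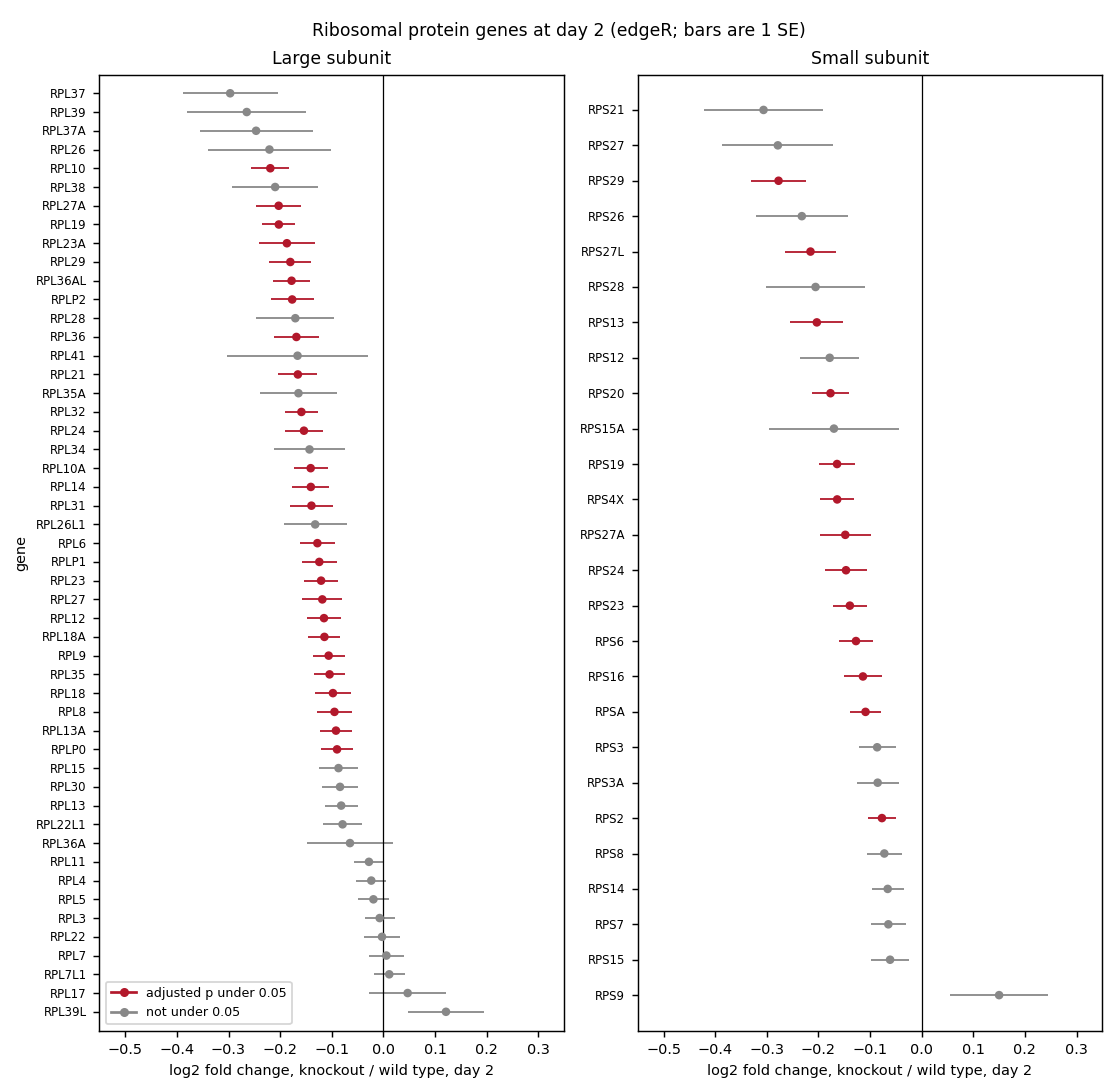
Day 2 log2 fold change of KO over WT for most of the tested ribosomal protein genes (points; bars are 1 SE of the edgeR fit; 3 libraries per genotype), without RPL7A and RPS10, whose counts were near 0. Nearly all points lie left of 0, and the genes with the lowest values, such as RPS21 (-0.31) and RPL37 (-0.30), have wide bars and were not called.

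KO library 1 stood apart from the other KO libraries, and the size of the fall depends on it. Among the 74 members with at least 25 CPM, it held the lowest of the 6 values for 67. The median deviation from the WT mean was -0.22 on the log2 scale in KO library 1, -0.068 in KO library 2 and -0.10 in KO library 3, against 0.036, -0.033 and -0.0012 in WT libraries 1, 2 and 3. WT library 1 was the highest for 57 of the 74. Without KO library 1, 37 members fell, against 9.84% of all genes, and 1 rose, against 11.2%; the median log2 fold change was -0.083. Of the members called, 33 were called both with and without it, 7 only with it, among them RPL8, RPL13A, RPL18, RPL27, RPLP0 and RPS16, and 4 only without it, RPL28, RPS12, RPS26 and RPS28. The member that rose without it was RPS9 (log2 fold change 0.26, edgeR adjusted p = 0.0435), which had a mean of only 14.4 CPM. Without WT library 1, 25 members fell. Over all tested genes, leaving out 1 library at a time gave 907 to 1202 lower calls, against 1262 with all 6 libraries.

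**Figure D2:**
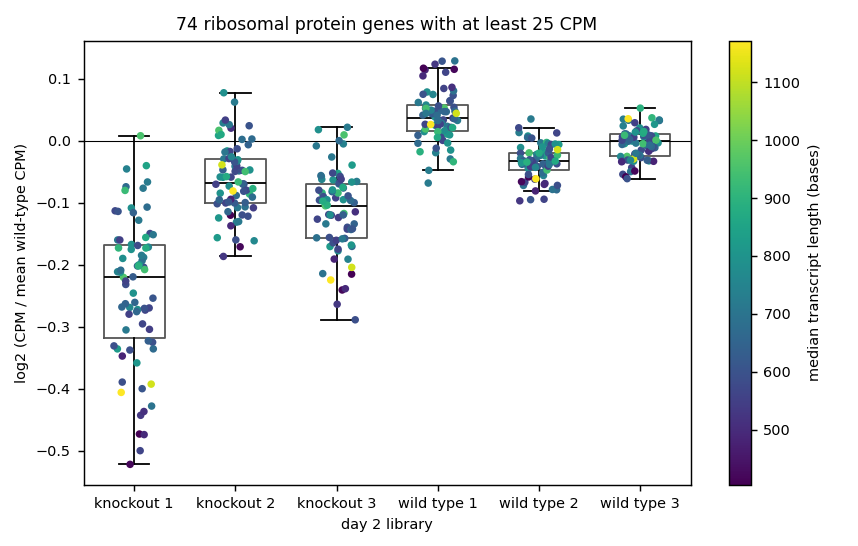
Deviation of each library from the mean WT level on day 2 (log2) for the 74 members with at least 25 CPM; each point is a gene, coloured by its median annotated transcript length in bases, boxes show quartiles, and whiskers the range within 1.5 box lengths. KO library 1 has its median at -0.22, with several of the shortest genes at its lower end, and KO libraries 2 and 3 at -0.068 and -0.10.

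The shortest transcripts fell furthest in KO library 1. For the 20 members with the shortest median transcript (405 to 588 bases), its median deviation was -0.29, against -0.20 for the other 54 (588.5 to 1172 bases). In KO libraries 2 and 3 the same medians were -0.070 against -0.063 and -0.13 against -0.096. Over all 6 libraries the 20 shortest had a median log2 fold change of -0.17 and 8 called lower, and the other 54 had -0.13 and 32 called lower. Without KO library 1 the medians were -0.098 and -0.085, with 6 and 31 called lower. Across the 74 genes, which share libraries and so are not independent, log2 fold change and log2 length had Pearson's r of 0.36 and Spearman's rho of 0.34. With GC content and length trends removed by a loess offset, 40 members fell and the median was -0.12. The share of all genes that fell in that fit is not given here. The length that a transcript had in these cells was not measured, and the part of length or RNA quality in the fall was not tested.

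The large subunit gene with the lowest fold change among those called was RPL10, whose protein joins the large subunit late in its assembly. RPL10 (chromosome X, 154389955 to 154409168, plus strand, GRCh38, GENCODE 29) had 882, 999 and 989 CPM in the knockout libraries and 1134, 1095 and 1113 CPM in the wild-type libraries. The groups did not overlap, and the log2 fold change was -0.22 ± 0.036 (SE, adjusted p = 6.65e-05 by edgeR's quasi-likelihood test). It was called under all 16 alternatives, and without KO library 1 it was -0.16.

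RPL19, a large subunit protein that reaches across to the small subunit, had 904, 974 and 964 CPM in the knockout libraries and 1134, 1066 and 1071 CPM in the wild-type libraries. Its libraries were separated by genotype (log2 fold change -0.20 ± 0.032 SE, edgeR adjusted p = 1.25e-05). RPL27A had 1075, 1244 and 1206 CPM in the knockout libraries and 1397, 1333 and 1327 CPM in the wild-type libraries (-0.20 ± 0.044 SE, edgeR adjusted p = 0.00339). RPL29, also described as a heparin-binding protein, had 745, 854 and 839 CPM in the knockout libraries and 936, 896 and 931 CPM in the wild-type libraries (-0.18 ± 0.04 SE, edgeR adjusted p = 0.00282). In all 3 genes KO library 1 was the lowest of the 6 libraries, and the other KO libraries also lay below WT. Without it RPL29 had a log2 fold change of -0.12, past the threshold.

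RPL23A and RPL35 sit at the mouth of the tunnel through which the new peptide leaves, where the signal recognition particle binds. RPL23A had 291, 339.8 and 331 CPM in the knockout libraries and 384, 354 and 357 CPM in the wild-type libraries (log2 fold change -0.19 ± 0.053 SE, edgeR adjusted p = 0.0265). Without KO library 1 it was -0.12, and the call was lost without WT library 1 and with the loess offset on GC content and length (adjusted p = 0.0734 and 0.0646). RPL35 had a smaller fold change (-0.10 ± 0.03 SE, edgeR adjusted p = 0.00879; 0.0743 without KO library 3), with 598 ± 8.97 CPM in knockout and 642 ± 2.62 CPM in wild-type libraries (SD, n = 3 each). RPL39, another protein of the tunnel, had 384, 490.1 and 459 CPM in the knockout libraries and 578, 512 and 512 CPM in the wild-type libraries, and did not pass the test (-0.26 ± 0.11 SE, edgeR adjusted p = 0.193). For RPL39 the KO libraries differed among themselves by more than KO library 2 differed from WT.

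The stalk genes, which encode the flexible arm that recruits elongation factors, all fell. RPLP2 had 594, 681 and 673 CPM in the knockout libraries and 753, 713 and 737 CPM in the wild-type libraries (-0.18 ± 0.042 SE, edgeR adjusted p = 0.00463). RPLP1 had 1187, 1325 and 1264 CPM in the knockout libraries and 1422, 1327 and 1366 CPM in the wild-type libraries (-0.12 ± 0.034 SE, edgeR adjusted p = 0.00831). RPLP0, the anchor of the arm and a common reference gene in quantitative PCR, fell least of them, with 1866 ± 96.2 CPM in knockout and 1986 ± 25.5 CPM in wild-type libraries (SD, n = 3 each; -0.09 ± 0.032 SE, edgeR adjusted p = 0.0373). The call of RPLP0 was lost without KO library 1 or 3 or any 1 WT library (adjusted p = 0.0682 to 0.183), and that of RPLP1 without WT library 1 (adjusted p = 0.0794). Without KO library 1, RPLP2 and RPLP1 had log2 fold changes of -0.11 and -0.081, past the threshold.

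Several abundant large subunit genes did not pass the test and had fold changes close to 0. RPL3 and RPL4, whose proteins reach toward the peptidyl transferase centre and the exit tunnel, had log2 fold changes of -0.0072 ± 0.029 and -0.023 ± 0.029 (SE, edgeR adjusted p = 0.892 and 0.613). RPL5 and RPL11, which form a particle with 5S rRNA and, when free of the ribosome, bind MDM2 and stabilise p53, had -0.019 ± 0.031 and -0.028 ± 0.029 (SE, edgeR adjusted p = 0.703 and 0.54). In levels, RPL5 had 1113, 1195 and 1167 CPM in the knockout libraries and 1201, 1151 and 1171 CPM in the wild-type libraries, and RPL11 had 1089, 1127 and 1079.9 CPM in the knockout libraries and 1129, 1106 and 1126 CPM in the wild-type libraries. The KO and WT libraries overlapped for both genes, as they did for RPL3 and RPL4.

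Among small subunit genes, RPS29, a zinc-binding protein of the subunit's head, had the lowest fold change of those called. RPS29 (chromosome 14, 49570984 to 49599164, minus strand) had 439, 515 and 471 CPM in the knockout libraries and 598, 547 and 581 CPM in the wild-type libraries, and the log2 fold change was -0.28 ± 0.053 (SE, edgeR adjusted p = 0.00289). Without KO library 1 it was -0.22, still past the threshold (adjusted p = 0.000632). RPS13 had 517, 601 and 587 CPM in the knockout libraries and 683, 629 and 649 CPM in the wild-type libraries (-0.20 ± 0.051 SE, edgeR adjusted p = 0.0137). The libraries of both genes were separated by genotype, with KO library 1 the lowest. The call of RPS13 was lost with the loess offset on GC content and length (edgeR adjusted p = 0.0566).

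RPS19, the gene most often mutated in Diamond-Blackfan anaemia, had 933, 1049.6 and 1031 CPM in the knockout libraries and 1146, 1104 and 1126 CPM in the wild-type libraries, and fell by 10.7% (log2 fold change -0.16 ± 0.035 SE, edgeR adjusted p = 0.000754). RPS6, the substrate of S6 kinase, had 1213, 1322 and 1298 CPM in the knockout libraries and 1378, 1362 and 1447 CPM in the wild-type libraries, and fell by 8.45% (-0.13 ± 0.032 SE, edgeR adjusted p = 0.00381). Both genes were lower in every KO library than in any WT library, and the call of RPS6 was lost without WT library 3 (adjusted p = 0.0701). RPS3, a protein of the mRNA entry channel, had 1626, 1798 and 1754 CPM in the knockout libraries and 1928, 1777 and 1792 CPM in the wild-type libraries, with overlapping groups (-0.086 ± 0.036 SE, edgeR adjusted p = 0.0821).

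RPS2 and RPSA were among the members with the smallest falls that passed the test. RPS2, the member with the highest mean CPM on day 2, had 2541, 2566 and 2534 CPM in the knockout libraries and 2714, 2644 and 2703 CPM in the wild-type libraries (-0.077 ± 0.028 SE, edgeR adjusted p = 0.0415). Its call held in 9 of 16 alternatives: among others it was lost with upper-quartile scaling (adjusted p = 0.118) and without KO library 2 or 3 or any 1 WT library (adjusted p = 0.0612 to 0.178). RPSA, which is also known as the laminin receptor precursor, had 1468, 1590.1 and 1547 CPM in the knockout libraries and 1661, 1632 and 1672 CPM in the wild-type libraries (-0.11 ± 0.03 SE, edgeR adjusted p = 0.00794), with the call lost without WT library 3 (adjusted p = 0.0629). Others among the 8 smallest called falls, beside RPL35 and RPLP0, were RPL9, RPL18, RPL8 and RPL13A, with log2 fold changes of -0.11, -0.098, -0.095 and -0.092. RPL9 was lost without KO library 3, WT library 1 or WT library 3 (edgeR adjusted p = 0.0762, 0.0818 and 0.0668). RPL18, RPL8 and RPL13A were each lost without KO library 1, KO library 3 and 2 of the WT libraries. They were also lost with upper-quartile scaling (edgeR adjusted p = 0.0915, 0.0900 and 0.0824), and RPL18 and RPL8 by DESeq2 (adjusted p = 0.0628 and 0.0588).

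The lowest fold changes of all did not pass the test, and their KO libraries were spread wide. RPS21 had 299.7, 382 and 364 CPM in the knockout libraries and 466, 411 and 416 CPM in the wild-type libraries (-0.31 ± 0.12 SE, edgeR adjusted p = 0.147). RPL37 had 697, 832 and 789 CPM in the knockout libraries and 1032, 886 and 930.2 CPM in the wild-type libraries (-0.30 ± 0.092 SE, edgeR adjusted p = 0.086), and RPS27 had 691, 872 and 813 CPM in the knockout libraries and 1032, 914 and 937 CPM in the wild-type libraries (-0.28 ± 0.11 SE, edgeR adjusted p = 0.154). In these genes, singled out after their values were seen, KO library 1 was far below the others and KO library 2 came near WT. Over the 74 members with at least 25 CPM, the median coefficient of variation was 6.001% among KO libraries and 2.86% among WT libraries.

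Day 2 fold changes were similar in size for genes with and without a motif match at the start, as a description of the medians. Of the members with a RefSeq start and at least 25 CPM, 27 held a match on their own strand, of which 14 fell, with a median log2 fold change of -0.15. The 33 without a match included 19 that fell, with a median of -0.14. A window without a match can still hold a pyrimidine run, as that of RPL22 does, so this split does not separate genes by the run.

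Several members are paralogs of other members, and their fold changes on day 2 ran in size between those of RPS27L and RPL39L. RPS27L, a target of p53 in human cells, had 76.1, 89.5 and 86.8 CPM in the knockout libraries and 98.2, 95.2 and 99.4 CPM in the wild-type libraries (-0.22 ± 0.048 SE, edgeR adjusted p = 0.00137). RPL36AL had 155, 164 and 157 CPM in the knockout libraries and 186, 173 and 180.5 CPM in the wild-type libraries (-0.18 ± 0.036 SE, edgeR adjusted p = 0.000375), while its parent RPL36A had a mean of only 17.1 CPM and a fold change of -0.065 ± 0.082 (SE, edgeR adjusted p = 0.623). Both called paralogs were lower in each KO library than in any WT library, and RPS27L had -0.14 without KO library 1. RPL7L1, a protein of large subunit assembly rather than of mature ribosomes, had 351 ± 1.13 CPM in knockout and 348 ± 4.64 CPM in wild-type libraries (SD, n = 3 each; 0.011 ± 0.03 SE, edgeR adjusted p = 0.833), and its parent RPL7 had 0.0058 ± 0.033 (SE, edgeR adjusted p = 0.926). RPL22L1 and its parent RPL22 had -0.079 ± 0.037 and -0.0027 ± 0.036 (SE, edgeR adjusted p = 0.124 and 0.968). RPL26L1 had -0.13 and RPL39L had 0.12 (edgeR adjusted p = 0.12 and 0.25); both are among the least abundant members. RPL3L and RPL10L were not analysed here.

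For 4 members the day 2 counts were near 0 while day 0 FPKM were high, and their day 2 counts are not read as levels. The mark was a mean under 5 CPM on day 2 with at least 50 FPKM in both day 0 libraries. RPS25, needed in yeast and human cells for initiation at certain viral internal ribosome entry sites, had 2, 4 and 4 counts in the knockout libraries and 2, 4 and 0 counts in the wild-type libraries on day 2, and 272 FPKM in the knockout library and 333 FPKM in the wild-type library on day 0. RPS18, a protein of the head of the small subunit, had 4, 10 and 7 counts in the knockout libraries and 3, 9 and 8 counts in the wild-type libraries on day 2, and 471 FPKM in the knockout library and 593 FPKM in the wild-type library on day 0. Neither gene passed the filter on low counts.

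RPL7A, a large subunit protein whose introns hold small nucleolar RNAs, had 41, 48 and 23 counts in the knockout libraries and 39, 28 and 35 counts in the wild-type libraries on day 2, and 479.7 FPKM in the knockout library and 766 FPKM in the wild-type library on day 0. RPS10, a protein of the mRNA entry side that is ubiquitinated when ribosomes collide, had 143, 147 and 102 counts in the knockout libraries and 98, 123 and 116 counts in the wild-type libraries on day 2, and 1067 FPKM in the knockout library and 1475 FPKM in the wild-type library on day 0. In all 4 genes the counts were low in both genotypes. Just outside the mark, by CPM alone, were RPS9 (14.4 CPM), RPL36A (17.1 CPM) and RPL17 (21.2 CPM), as means of all 6 libraries. RPL39L (20.2 CPM) was also low on day 2. It had 40.6 FPKM in the knockout library and 62.5 FPKM in the wild-type library on day 0. The knockout value of RPL39L was under the FPKM limit of the mark.

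**Figure D3:**
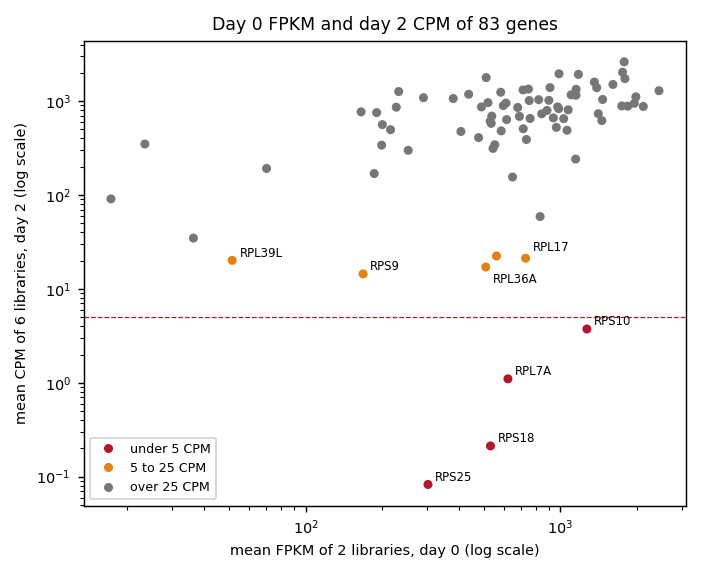
Mean FPKM on day 0 (2 libraries) against mean CPM on day 2 (6 libraries) for the 83 genes, both on log scales; the dashed line is 5 CPM. RPS25, RPS18, RPL7A and RPS10 lie under the line with day 0 levels in the range of the other members, and 5 more genes, not all of them labelled, lie between 5 and 25 CPM.

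The annotation (GENCODE 29, GRCh38) places other genes over some of these loci. RPS10 shares 39.4% of its exon length with the read-through gene RPS10-NUDT3, RPL17 shares 32.7% with RPL17-C18orf32 and small nucleolar RNAs, and RPL7A shares 12.7% with small nucleolar RNAs and has 37 named pseudogenes. RPS18 and RPS25 share exon positions only with genes of the other strand. Members with high day 2 counts carry such features too: RPS2 (mean of 2617 CPM) shares 25.6% and has 20 named pseudogenes, and RPSA (1595 CPM) has 74. RPS9, at only 14.4 CPM, shares no exon length on its own strand and has 1 named pseudogene. Of all 83 members, 51 share exon positions with at least 1 other gene and 77 have at least 1 named pseudogene, so the counting, whose tool and strand setting the sources used here do not give, can move reads between them. Of the 32 members with no overlapping gene, all tested, 16 fell. The part of overlaps in the near-zero counts was not tested.

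Day 0 had 1 library per genotype, so its values have no replicate check and no test, and each log2 ratio is of FPKM + 1. FPKM are scaled for transcript length and depth, so levels can be set beside each other. Among the most abundant members by mean FPKM were RPL41, RPS27, RPL12 and RPL11. The 5 least abundant were the paralogs RPS27L, RPL7L1, RPL26L1, RPL39L and RPL22L1. Member means ran between 17.2 and 2438 FPKM with a median of 714.

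On day 0, too, most members were lower in the KO library. The ratio was below 0 for 74 of the 83 genes and above 0 for 9, with a median log2 ratio of -0.28 (17.6% lower), against -0.032 for 13284 genes. Past 1.2-fold, 42 members (50.6%) were lower and 3 higher, against 26.5% and 18.9% of all genes. Past 1.5-fold, 6 members (7.23%) were lower and 2 higher, against 8.77% and 4.81% of all genes, a share near the background. The summed level of the 83 genes was 61422 FPKM in KO and 73461 FPKM in WT, 16.4% lower. The median ratio was -0.23 for large and -0.29 for small subunit genes.

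Among the members with low ratios, RPL23, which binds MDM2 when free, had 398 FPKM in the knockout library and 642 FPKM in the wild-type library (log2 ratio -0.69). RPS3A had 523 FPKM in the knockout library and 838 FPKM in the wild-type library (-0.68), and RPL7A had a ratio of -0.67. The mean day 0 level of each of these 3 genes was below the median of the members. RPL36A had 398 FPKM in the knockout library and 622 FPKM in the wild-type library (-0.64), while the read-through gene RPL36A-HNRNPH2, which shares its exons, had 137 FPKM in KO and 30.9 FPKM in WT. The split of reads between such overlapping models is uncertain.

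RPL22L1 had the highest ratio, opposite to its parent. RPL22L1 (chromosome 3, 170864875 to 170870483, minus strand, GRCh38, GENCODE 29) had 97.0 FPKM in the knockout library and 43.7 FPKM in the wild-type library (log2 ratio 1.13), and RPL22, whose protein restrains RPL22L1 mRNA in mouse, had 437 FPKM in the knockout library and 634 FPKM in the wild-type library (-0.54). The paralog was thus higher and the parent lower in the KO library on day 0, and on day 2 neither passed the test. RPS26, which contacts mRNA near the exit channel, had 244 FPKM in the knockout library and 154 FPKM in the wild-type library (0.66). RPL36AL had 211 FPKM in the knockout library and 161 FPKM in the wild-type library (0.39), and RPS27A, made as a fusion with ubiquitin, had 812 FPKM in the knockout library and 698 FPKM in the wild-type library (0.22). RPL35A had a ratio of 0.15. RPS26, RPL36AL, RPS27A and RPL35A were thus above 0 on day 0 and below 0 on day 2, and of them RPL36AL and RPS27A passed the day 2 test. The call of RPS27A (edgeR adjusted p = 0.0477) was lost with upper-quartile scaling (0.0851) and without WT library 1 or 2 (0.127 and 0.0659).

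**Figure D4:**
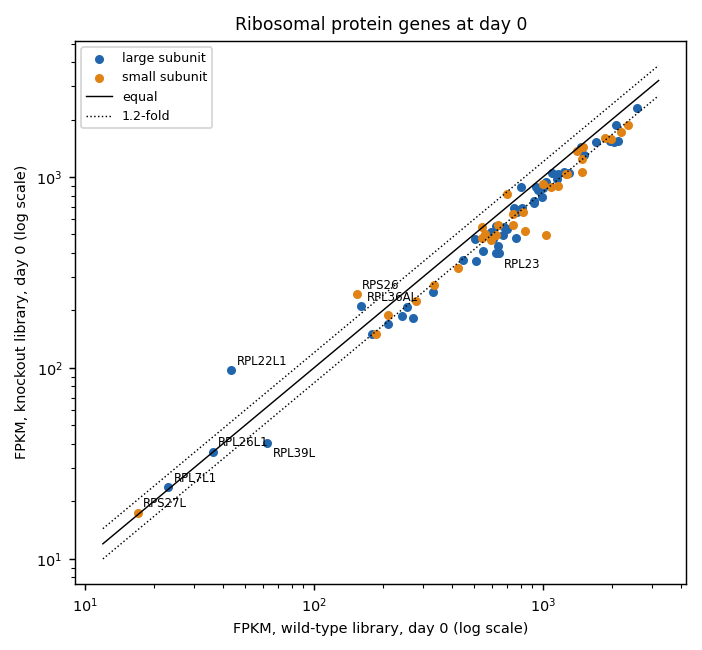
Day 0 FPKM of each ribosomal protein gene in the KO library (vertical) against the WT library (horizontal), 1 library each, on log scales; the solid line marks equal values and the dotted lines 1.2-fold. Most points lie under the solid line, RPL23 is at 398 FPKM in KO against 642 FPKM in WT, and RPL22L1 stands above at 97.0 FPKM in KO against 43.7 FPKM in WT.

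The days used different units, and each was compared only within its own table. Of the tested members, 68 were below 0 on both days. Of the 40 that fell on day 2, 36 were below 0 on day 0 and 4 above. The sizes of the effects did not go together: across 74 genes Pearson's r was -0.017 and Spearman's rho -0.043, as a description over genes that share libraries.

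Other genes of the ribosome and of translation, set beside the members, included the fusion gene FAU, which fell on day 2. FAU had 154, 184 and 168 CPM in the knockout libraries and 199, 199 and 202 CPM in the wild-type libraries (-0.24 ± 0.046 SE, edgeR adjusted p = 0.000717). Its fold change lay within the range of the members. Of 17 elongation factors and other TOP mRNAs, 2 rose and 2 fell, with a median of -0.029. BTF3, a subunit of the nascent polypeptide-associated complex, rose (0.48, edgeR adjusted p = 4.33e-13), as did the helicase gene EIF4A2 (0.27, edgeR adjusted p = 2.47e-08). EEF1A1, which brings aminoacyl-tRNA to the ribosome, fell (-0.13, edgeR adjusted p = 0.000941).

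The counts of the lists stand against 11.0% of all tested genes lower and 12.3% higher. Among 27 initiation factors 1 rose and 5 fell, with EIF5 (-0.25) and EIF3J (-0.14) lower and EIF4A1 (0.44) higher. EIF4A1 had 22.1, 21.6 and 23.5 CPM in the knockout libraries and 16.9, 17.2 and 15.5 CPM in the wild-type libraries on day 2, but 205 FPKM in the knockout library and 179 FPKM in the wild-type library on day 0, so its day 2 counts were low in the way of RPS9 and RPL36A. Small subunit assembly factors had 1 of 32 higher and 5 lower, led by WDR43 (-0.15), NOL11 (-0.15) and MPHOSPH10 (-0.15), all lower; MPHOSPH10 was lost without KO library 3, WT library 2 or WT library 3 (edgeR adjusted p = 0.0837, 0.0699 and 0.0636). Large subunit assembly factors had 2 of 30 higher and 4 lower, led by SBDS (-0.21) and NIFK (-0.17), both lower, and NOC3L (0.15), higher, which was lost without KO library 3, WT library 1 or WT library 3 (edgeR adjusted p = 0.0676, 0.0557 and 0.157). The medians of these 3 lists were -0.033, -0.038 and -0.0051. RNA polymerase I genes had 3 of 18 lower and 0 higher at an adjusted p under 0.05, with POLR2L (-0.21), POLR1C (-0.30) and UBTF (-0.13) lower. Of 13 snoRNP and nucleolar scaffold genes 1 rose, NOLC1 (0.10), and 2 fell, NOP56 (-0.12) and NOP10 (-0.13); NOP10 was lost without KO library 1, WT library 1 or WT library 3 (edgeR adjusted p = 0.218, 0.123 and 0.116), and NOLC1 without WT library 3 (edgeR adjusted p = 0.0864). Of 17 mTOR, LARP1 and MYC regulators 0 rose and 2 fell, EIF4EBP1 (-0.12), which encodes an mTOR substrate that holds back cap-dependent initiation, and CNBP (-0.094). Without KO library 1 neither was called (edgeR adjusted p = 0.094 for EIF4EBP1 and 0.0716 for CNBP), nor without WT library 1 (edgeR adjusted p = 0.0658 and 0.221), and CNBP was also lost without KO library 3 or WT library 3 (edgeR adjusted p = 0.145 and 0.0714). In the same list, MYCN stood at 0.12 (edgeR adjusted p = 0.0597). Of 5 dedicated chaperones of ribosomal proteins 0 rose and 1 fell, GRWD1 (-0.14), which was lost without KO library 3 (edgeR adjusted p = 0.0647). Of 5 snoRNA host genes 2 rose, SNHG15 (0.22) and SNHG12 (0.22; edgeR adjusted p = 0.0556 without KO library 3), and 0 fell. Of 12 quality control genes 1 rose, GTPBP1 (0.19), and 1 fell, EDF1 (-0.19), a sensor of collided ribosomes.

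On day 0 most ribosome assembly genes had higher values in the KO library. Past 1.2-fold, 24 of 32 small subunit assembly factors were higher in KO and 0 lower, against 18.9% higher and 26.5% lower over all genes, with a median log2 ratio of 0.41. For large subunit assembly factors the counts were 18 higher and 0 lower of 30, with a median of 0.37, and for the snoRNP list 9 higher and 1 lower of 13, with a median of 0.35. NIFK, which binds Ki-67 and takes part in pre-rRNA processing, had 45.3 FPKM in the knockout library and 22.9 FPKM in the wild-type library, and NOP56, a core protein of box C/D snoRNPs, had 267 FPKM in the knockout library and 164 FPKM in the wild-type library. RNA polymerase I genes had 9 of 20 higher and 1 lower (median 0.23), initiation factors 11 of 28 higher and 2 lower (0.15), and TOP mRNAs other than the members 1 of 18 higher and 7 lower (-0.11). With 1 library per genotype these are values of those libraries.

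**Figure D5:**
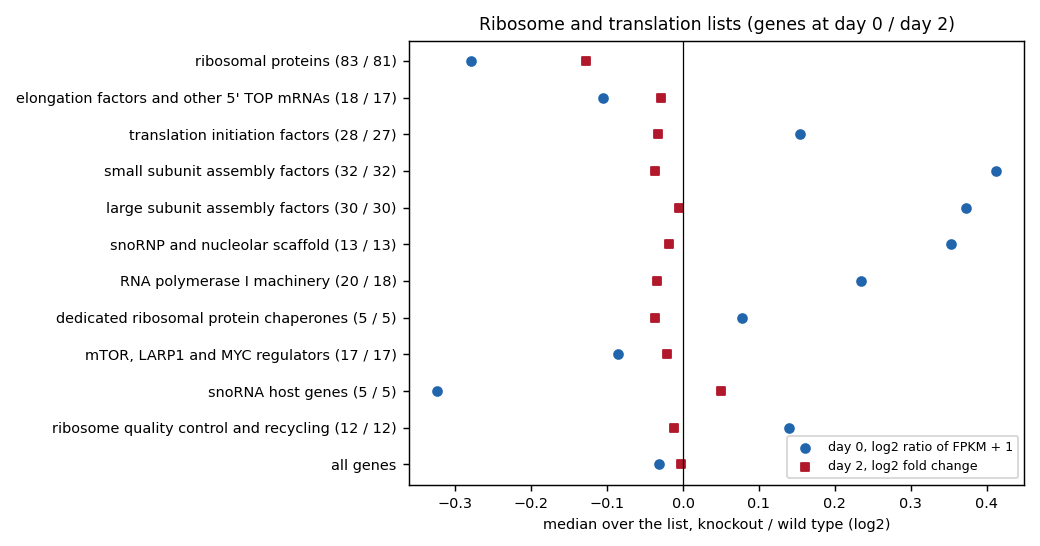
Median log2 KO / WT of each list on day 0 (circles, ratio of FPKM + 1, 1 library per genotype) and day 2 (squares, edgeR fold change, 3 libraries per genotype); numbers give genes on day 0 and day 2. Ribosomal proteins are at -0.28 and -0.13, small subunit assembly factors at 0.41 and -0.038, and all genes at -0.032 and -0.0026.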

How the data were processed

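RNA-seq of 8 libraries was used. The submitters' processing notes list HISAT2, StringTie and the build GRCh38 with no versions. Which tool counted reads, with which strand setting and annotation, is not given in the sources used here. The authors deposited counts per gene for day 2 and FPKM per gene for day 0, per the file headers. The members, the related lists and the tests were chosen with earlier results of these data known.

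Day 2 counts were scaled by TMM, filtered with filterByExpr (11475 genes kept) and analysed in edgeR 4.0.16 under R 4.3.3 by its robust quasi-likelihood test, which is 2-sided, with a genotype term alone. P-values were adjusted by Benjamini-Hochberg over all tested genes and called at 0.05, after the steps had been tested on simulated counts. limma 3.58.1 (voom) and DESeq2 1.42.0 were alternatives, with other scalings and filters, loess offsets on GC content and length, a replicate block, and each library left out in turn. CPM are TMM-scaled and SD are over 3 libraries. Day 0 ratios used FPKM + 1 where either library reached 1 FPKM; pseudocounts of 0.1 and 5 were alternatives. Removing the members marked or under 25 CPM was added after the data were seen. Lengths, overlaps and positions are from GENCODE 29, and start sites from RefSeq. Tables and plots were made in Python 3.11.15 (scipy 1.17.1, matplotlib 3.10.9, pandas 2.3.3, numpy 2.4.6).

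Named with values were SETD7, the 8 lowest and 8 highest fold changes among called members, members marked near 0, paralogs with their parents, the stalk genes and RPSA, RPL3, RPL4, RPL5, RPL11, RPS3, RPS6 and RPS19, the 5 highest and 5 lowest day 0 ratios, the 5 most and 5 least abundant members, and up to 3 genes per related list with the smallest p. A few genes that this rule would name are not reported here, though counts and sums include them. Same-numbered libraries did not pair: the correlations of their deviations from the group means were -0.070, -0.074 and -0.038. Within a genotype, chi-square over degrees of freedom was 3.04 to 8.95 between libraries, so none repeated another within sampling noise.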

Additional observations from a re-analysis of the deposited data

How the results depend on the processing

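The count of members called lower was 40 in the fit reported. It was 32 to 56 under other scalings, filters, tests and offsets, all within 1.5 times of 40, with 0 called higher. The counts over all genes in those other fits are not given here. With the replicate block, 36 members were called lower, 33 of them among the 40; same-numbered libraries share only a number, and over all genes the block gave 1005 lower and 1205 higher calls. Leaving out each library in turn gave 25 to 55 members called lower (25 without WT library 1) and 0 to 1 called higher (1 without KO library 1). Over all tested genes the same fits gave 907 to 1202 lower and 1098 to 1307 higher calls, against 1262 and 1406 with all 6 libraries. The medians of the members were -0.16 to -0.083, and the share differences were -0.60 to -0.29 percentage points. Across the related lists, leaving out a library gave 6 to 11 genes called higher (6 without WT library 3 or KO library 3) and 19 to 33 called lower, against 10 and 27. Of the members, 17 were called under all 16 alternatives. The day 0 median was -0.25 with ratios centred on the median of all genes. Members marked near 0 numbered 2 with a limit of 1 CPM and 10 with a limit on CPM per kilobase relative to day 0 FPKM. Genes near 0 changed sign under some settings: log2 fold changes were 0.013 for RPL22, 0.0085 for RPL3 and 0.013 for RPS10 with upper-quartile scaling, 0.011 for RPL22, 0.019 for RPL5 and 0.012 for RPS10 with the loess offset, and 0.0097 for RPL22, 0.019 for RPL5 and 0.012 for RPS10 with the offset and the replicate block. With a library left out, the values ran for RPL22 between -0.045 and 0.051, for RPL36A between -0.13 and 0.013, for RPL7 between -0.028 and 0.044, for RPL7A between -0.32 and 0.071, for RPS10 between -0.097 and 0.052, for RPL3 between -0.026 and 0.014, for RPL4 between -0.038 and 0.0040 and for RPL5 between -0.043 and 0.011. The values of RPL7A and RPS10 rest on the near-zero counts that are not read as levels. The cause was not tested. Of the 9 members under 25 CPM, RPS18 and RPS25 were not tested and none of the others was called with all 6 libraries. Leaving out the 9 kept 40 lower calls. Day 0 has no replicates, and its depth is unknown.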
